A study of Homo sapiens with 4 samples.

Results

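The HNK-1 glucuronyltransferases B3GAT1 and B3GAT2, their relative B3GAT3 and the HNK-1 sulfotransferase CHST10 were followed in vector control (vec) and PKP3 knockdown (shpkp3-2) clones of HCT116, an established colorectal carcinoma cell line. The members were all probes that are not controls and that carry one of these 4 gene names on the array. There were 4 such probes, 1 for each of the 4 genes, among 50238 probes in all. RNA was hybridized to 4 single color arrays, 2 for vec and 2 for shpkp3-2. The vec clone carried the vector alone and the shpkp3-2 clone carried a stably transfected plasmid that encodes an shRNA against plakophilin 3. The labels give growth in IMDM and selection in 5 µg/ml of puromycin, where the study's methods name blasticidin. Each group was 1 clone, so that the knockdown and other differences between clones cannot be told apart. RNA was collected on separate occasions, one for the first arrays of both clones and another for the second arrays. The spread between arrays, which is all that the p-values measure, is therefore that between RNA collections of 1 clone. In RNA of whole cultures, a gene used by fewer cells and a gene with less RNA per cell cannot be told apart.

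HNK-1, also called CD57, is a sulfated sugar epitope best known from the nervous system and from natural killer cells. It is built at the end of a glycan when a glucuronyltransferase adds glucuronic acid to a terminal N-acetyllactosamine unit and a sulfotransferase then adds sulfate to that glucuronic acid. B3GAT1 (GlcAT-P) and B3GAT2 (GlcAT-S) are the glucuronyltransferases of this pathway, and CHST10 (HNK-1ST) is its sulfotransferase. B3GAT3 (GlcAT-I) belongs to the same enzyme family but adds the last sugar of the linker that joins heparan sulfate and chondroitin sulfate chains to their core proteins, a step that most cell types use.

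In these cells the members fell into 3 patterns. B3GAT1 was well above background in both vec arrays and in neither shpkp3-2 array. B3GAT3 was well above background on every array and differed by 1.25-fold between the clones. B3GAT2 and CHST10 were well above background on none of the 4 arrays.

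The array sequences are given because each gene was read by a single probe, so that every value below rests on 1 stretch of bases. Each probe held 60 bases. The probe of B3GAT1 is annotated to NM_018644, that of B3GAT2 to NM_080742, that of B3GAT3 to NM_012200 and that of CHST10 to NM_004854. For B3GAT1 and CHST10 the first 30 bases are shown. Capitals in B3GAT1 mark a stop triplet that starts at base 19, and capitals in B3GAT2 and B3GAT3 mark the longest run that their probes share. All are written 5′ to 3′ as the array files give them.
B3GAT1: acttctttgggcagatgcTAGgtcagttgt
B3GAT2: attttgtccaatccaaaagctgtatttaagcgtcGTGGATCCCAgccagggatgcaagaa
B3GAT3: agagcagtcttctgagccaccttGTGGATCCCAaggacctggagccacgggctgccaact
CHST10: acagcccagcagggaggaagcatcacacag

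The shared run of B3GAT2 and B3GAT3 was 10 bases long, from base 35 in B3GAT2 and from base 24 in B3GAT3. The B3GAT1 probe shared no run longer than 5 bases with either of its relatives, and no run longer than 4 bases with CHST10. In the letters of the whole B3GAT1 probe, every forward reading frame held a stop triplet (TAA, TAG or TGA). The B3GAT2 and B3GAT3 probes each had 2 frames without one, and the CHST10 probe had 1. The GC content was 41.7% in B3GAT1, 45% in B3GAT2, 60% in B3GAT3 and 55% in CHST10.

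The deposited value of a spot is its processed signal, an intensity from which background was subtracted and spatial trends were removed. It was put on a log2 scale relative to the 75th percentile of its array, so that 0 is the 75th percentile and a difference of 1 is a change of 2-fold. Well above background is a call of the array software, positive where a spot is significantly brighter than its background by a margin that the software sets. Between 60.5% and 63.5% of the 51538 spots that are not controls carried this call per array, and 0 were saturated. The number of arrays, 2 per clone, limits the precision. PKP3, the desmosomal plaque protein that the shRNA targets, was first checked in every array. Its normalized log2 level was 5.39 and 5.91 in vec, against 3.17 and 3.04 in shpkp3-2, a difference of -2.54 (SE 0.23, adjusted p = 0.0188, limma). The adjusted p was 0.135 with no filter on detection and 0.145 with a weaker background call of the software, at the same difference.

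B3GAT1 was the member with the lower signal in the knockdown clone. Its processed intensity was 27.3 in the first vec array and 22.9 in the second, against 1.95 and 1.69 in the first and second shpkp3-2 arrays. Both vec spots were well above background and neither shpkp3-2 spot was. The clones did not overlap, and the lower vec intensity was above both shpkp3-2 intensities. The software's own error of these intensities was 3.32 and 2.99 in vec, compared with 1.96 and 1.69 in shpkp3-2, so that each shpkp3-2 value was about as large as its error. Both shpkp3-2 values were surrogates, which the software writes in place of a signal too close to background to be subtracted.

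The spots before any correction showed the same order. The mean pixel intensity of the B3GAT1 spot was 58.8 and 52.6 in vec over a local background of 28 and 26. It was 25.2 and 25.5 in shpkp3-2 over a local background of 27 and 29. In vec the spot was thus brighter than its surroundings by 30.8 and 26.6, and in shpkp3-2 it was dimmer than them by a difference of -1.80 and -3.48. The SD over the 41 or 42 pixels of a spot was 10.5 and 12.7 in vec, against 9.32 and 5.56 in shpkp3-2. None of these spots carried the software's flag for uneven pixels.

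**Figure D1:**
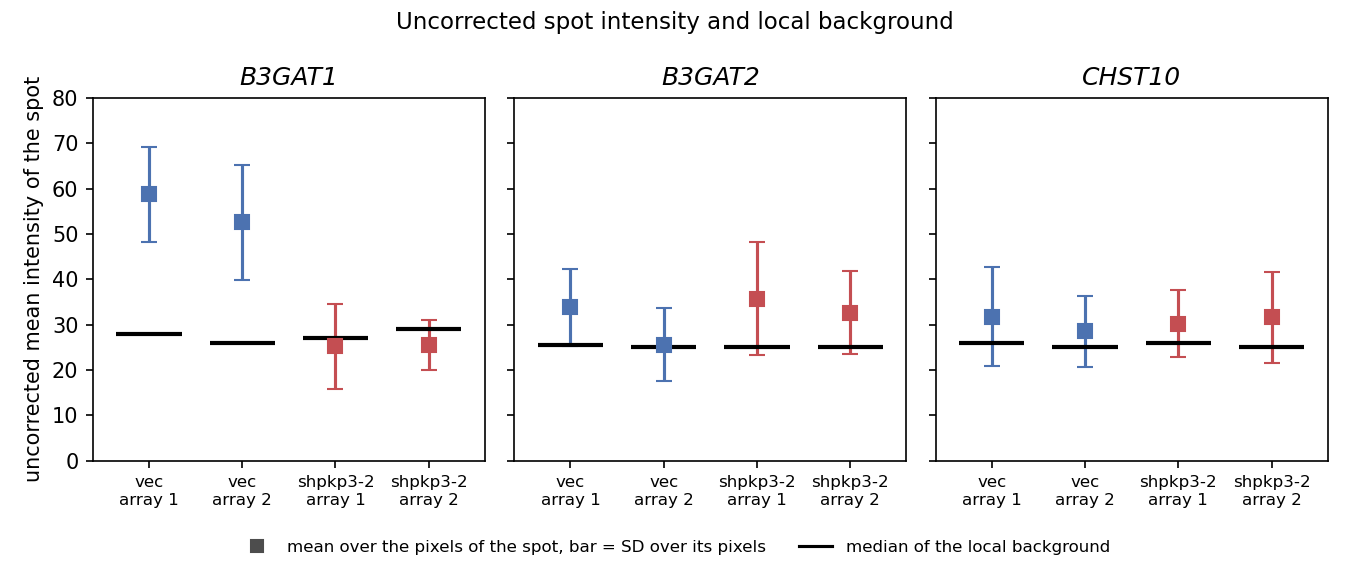
Uncorrected mean intensity of the B3GAT1, B3GAT2 and CHST10 spots on each array (squares, no unit), with bars for the SD over the pixels of the spot and a black line for the median of the local background. The B3GAT1 spot stands 30.8 and 26.6 above the background line in vec and lies below it in shpkp3-2, while the bars of B3GAT2 and CHST10 reach the line on all 4 arrays.

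After normalization the level of B3GAT1 was -4.19 and -4.06 in vec, compared with -7.60 and -7.79 in shpkp3-2. The means were -4.13 ± 0.09 (SD, n = 2) and -7.70 ± 0.14 (SD, n = 2). The measured log2 difference, shpkp3-2 minus vec, was -3.57 (SE 0.18), and by RNA collection it was -3.41 and -3.73. As the probe had no signal well above background in shpkp3-2, only an approximate bound on the fold can be given. With each shpkp3-2 array set to the lowest normalized level that carried the call there, B3GAT1 came out 2.38-fold higher in vec. A second ST3GAL3 probe lay above that level on 1 shpkp3-2 array without carrying the call. The bound is therefore not a strict limit. The members were chosen by this contrast between the clones, from these normalized levels and background calls, so their values are a description and no test is given.

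The size of the measured difference depended on how near-background signal was treated. With normexp background correction in place of the software's own, the B3GAT1 difference was -0.48 and the bound was 1.20-fold. With a floor of 5 on the scaled signal it was -2.23. For comparison, 199 of 50117 probes (0.397%) were well above background in both vec arrays and neither shpkp3-2 array, and 206 (0.411%) showed the reverse. B3GAT1 also had a log2 difference of at least 1 downward in each shpkp3-2 array against the vec mean, as had 190 of 30512 tested probes (0.623%), while 341 (1.12%) rose by that rule. It is 1 of the 4 members, and as the contrast chose them nothing is read from that count. Groups that did not overlap with shpkp3-2 lower were common, at 18.0% of tested probes.

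B3GAT2, the other HNK-1 glucuronyltransferase, was well above background on no array. Its processed intensity was 7.34 and 2.01 in vec, against 8.82 and 6.39 in shpkp3-2. The second vec array was the lowest, with a surrogate value, and the first vec value lay between both shpkp3-2 values. After normalization the level was -6.09 and -7.57 in vec, compared with -5.42 and -5.87 in shpkp3-2, and there the clones did not overlap. Both shpkp3-2 arrays were above both vec arrays in 27.2% of tested probes, and the B3GAT2 probe was not among those tested. The uncorrected mean intensity of the spot was 33.8 and 25.6 for vec and 35.7 and 32.6 for shpkp3-2, where the local background was 25 to 25.5. On a weaker call of the software, positive and significant against background, 3 of the 4 arrays passed, the exception being the second vec array. No fold is given, as both clones were below the stronger call.

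CHST10, the sulfotransferase that completes the epitope, was likewise well above background on no array. Its processed intensity was 5.78 and 3.47 in vec, against 4.19 and 4.30 in shpkp3-2. Both shpkp3-2 values lay between the vec values, so that the clones overlapped. The normalized log2 level ran from -6.78 to -6.43 over the 4 arrays. All 4 arrays passed the weaker call, with the spot brighter than its surroundings by 5.74 and 3.51 in vec and by 4.24 and 6.58 in shpkp3-2. Of all probes with a value on every array, 33.4% were well above background on none.

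B3GAT3, the linker glucuronyltransferase, was well above background on all 4 arrays, as were 57.6% of probes. Its processed intensity was 633.5 and 576.1 in vec, compared with 662.3 and 646.5 in shpkp3-2. The normalized log2 level was 0.35 and 0.60 in vec, against 0.81 and 0.79 in shpkp3-2. Both shpkp3-2 arrays were above both vec arrays, as for 27.2% of tested probes. The means were 0.47 ± 0.18 (SD, n = 2) and 0.80 ± 0.01 (SD, n = 2), a log2 difference of 0.33 (SE 0.18), or 1.25-fold. The difference was 0.46 within the first RNA collection and 0.19 within the second, and the median over all tested probes was 0.05. It ran from 0.20 to 0.45 over the alternatives tried, and did not reach 2-fold in any of them.

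The 3 patterns together show which steps of the pathway had signal well above background on these arrays. In vec, 1 of the 2 HNK-1 glucuronyltransferases was well above background and the HNK-1 sulfotransferase was not. In shpkp3-2 none of the 3 was. On the weaker call, B3GAT2 passed on 3 of the 4 arrays and CHST10 on all 4, both shpkp3-2 arrays included. Protein, enzyme activity and the epitope itself were not measured.

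The genes around these enzymes were taken from 6 lists of the pathway, with 62 genes in all, of which 46 were tested and 44 were well above background on all 4 arrays. limma with Benjamini-Hochberg adjustment called 0 of the 46 in either direction, against 75 probes higher (0.246%) and 44 lower (0.144%), together 0.390%, among the 30512 tested. At an unadjusted p under 0.05 there were 1 higher and 3 lower in the lists, against 12.3% of all tested probes in either direction. With RNA collection as a block, 0 of the 46 were called as well, where 503 probes were called higher and 338 lower over all probes. The value of a gene with several probes is that of its brightest probe. A second L1CAM probe, described below and named for its pattern, lies outside these counts.

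**Figure D2:**
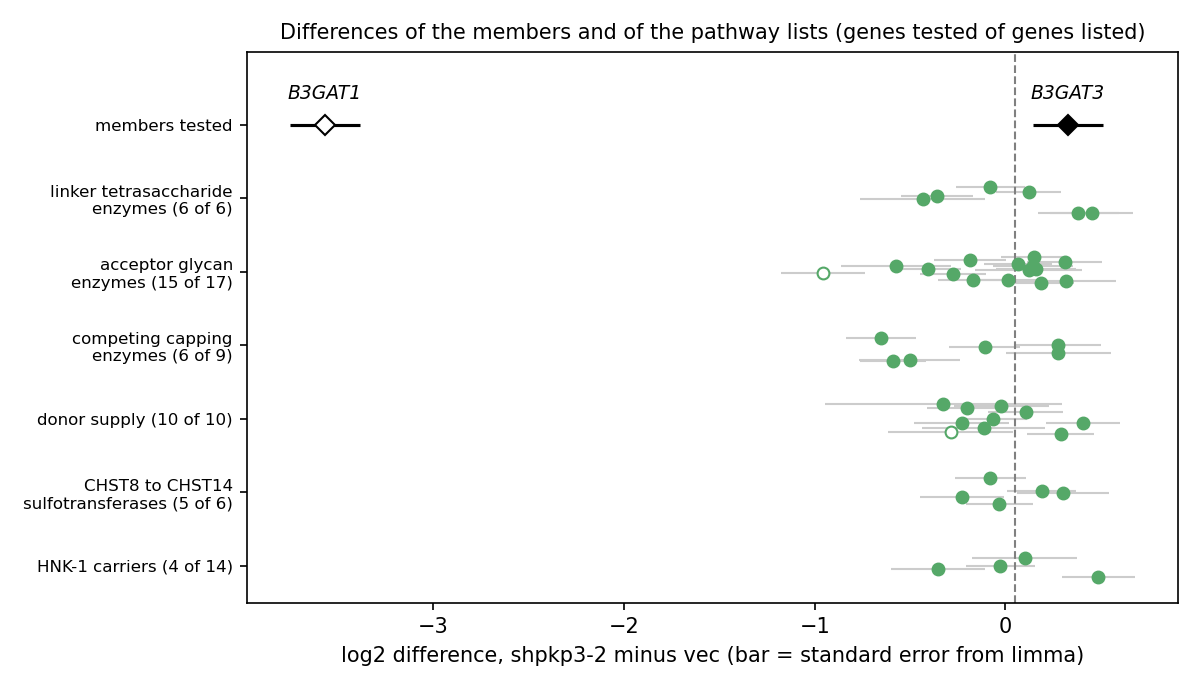
Log2 difference, shpkp3-2 minus vec, of the tested members (diamonds) and of the tested genes of the 6 pathway lists (circles), with bars for the standard error from limma; open symbols were not well above background on all 4 arrays and the dashed line is the median of all tested probes (0.05). B3GAT1, drawn at its measured -3.57 for which only an approximate bound of the fold is given, lies to the left of the list genes drawn, each by its brightest probe, the lowest of which is B4GALT6 at -0.96.

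The enzymes that work beside B3GAT3 on the linker were all detected. The 6 genes of the linker tetrasaccharide list had signal well above background throughout, with a median log2 difference of 0.02 and a range from -0.43 to 0.45. XYLT1 and XYLT2, the xylosyltransferases that start the linker, had opposite signs. XYLT2 had levels of 4.02 and 4.47 in vec, compared with 4.63 and 4.76 in shpkp3-2, a difference of 0.45 (adjusted p = 0.472, limma). XYLT1 differed by -0.43 (adjusted p = 0.623, limma), with 1 vec array above and the other within the shpkp3-2 values, and its other probe by 0.48. Without the first vec array the XYLT1 value turned to 0.02, and with the mean of its probes it was also 0.02. B4GALT7, which adds the first galactose of the linker, differed by 0.38 (adjusted p = 0.522, limma), and its other 2 probes by 0.36 and 0.43. Leaving out single arrays, XYLT2 ranged from 0.23 to 0.68 and B4GALT7 from 0.18 to 0.58.

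The enzymes that build the sugar chain on which HNK-1 sits were mostly detected too. Of the 17 genes of the acceptor glycan list, 15 were tested, with a median log2 difference of 0.06. B3GNT2, which extends poly-N-acetyllactosamine, had levels of -0.33 and -1.13 in vec and of -1.31 and -1.30 in shpkp3-2, a difference of -0.58 (adjusted p = 0.486, limma), or -0.18 without the first vec array and -0.98 without the second. MGAT1, which opens the way to complex N-glycans, differed by 0.32 (adjusted p = 0.652, limma), which turned to -0.02 without the first vec array. MGAT5B, a branching enzyme, differed by -0.41 (adjusted p = 0.423, limma). B4GALT6, a galactosyltransferase of glycolipids, had the most negative difference among the tested genes of the list, with levels of -4.10 and -4.58 in vec, against -5.34 and -5.25 in shpkp3-2. Its difference was -0.96 with 3 of 4 arrays well above background, and -0.08 with normexp correction. It passed the filter on detection only through vec and is named after its values were seen, so these values are a description. MGAT3, which adds the bisecting N-acetylglucosamine, was well above background on no array.

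The capping list held sialyl- and fucosyltransferases that modify glycan ends in other ways than B3GAT1 and B3GAT2, among them the polysialyltransferases ST8SIA2 and ST8SIA4, which extend ends that already carry sialic acid. Of 9 genes 6 were tested, with a median log2 difference of -0.31 against 0.05 over all tested probes. ST3GAL3, a sialyltransferase, had levels of -1.90 and -2.08 in vec, compared with -2.71 and -2.57 in shpkp3-2, a difference of -0.65 (adjusted p = 0.268, limma). Its second probe differed by -0.05, and with normexp correction the value was -0.34. ST3GAL6, of the same family, had levels of -0.16 and -0.26 in vec, against -0.77 and -0.83 in shpkp3-2, a difference of -0.59 (adjusted p = 0.286, limma). ST6GAL1 differed by -0.50 (adjusted p = 0.510, limma), from a vec mean of 1.15 ± 0.49 (SD, n = 2) to a shpkp3-2 mean of 0.65 ± 0.07 (SD, n = 2), and by -0.15 without the first vec array and -0.85 without the second. In each of these 3 genes, named for the largest differences of the list, both vec arrays were above both shpkp3-2 arrays, as for 18.0% of tested probes, and none passed the test. ST3GAL4 and ST8SIA2 differed in the other direction, by 0.27 (adjusted p = 0.650, limma) and 0.28 (adjusted p = 0.708, limma). In both, the first vec array was below the shpkp3-2 arrays and the second lay between them, so that the clones overlapped. ST6GAL2, ST8SIA4 and FUT9 were well above background on no array.

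The substrates of the members are UDP-glucuronic acid for the glucuronyltransferases and PAPS, the sulfate donor, for CHST10. All 10 genes of the donor supply list were tested, with a median log2 difference of -0.09. UGDH, which makes UDP-glucuronic acid, had a vec mean of -0.08 ± 0.11 (SD, n = 2) and a shpkp3-2 mean of -0.28 ± 0.28 (SD, n = 2), which differ by -0.20 (adjusted p = 0.727, limma). The UGDH level of the first shpkp3-2 array lay between the vec levels, so that the clones overlapped. SLC35D1, which carries UDP-glucuronic acid into the endoplasmic reticulum, differed by 0.29 (adjusted p = 0.557, limma). SLC35B3, a PAPS transporter of the Golgi, differed by 0.41 (adjusted p = 0.466, limma), or from 0.25 to 0.56 with each array left out. SLC26A1, a sulfate transporter, differed by -0.33 (adjusted p = 0.858, limma) with vec arrays at 1.40 and 3.45, and the value was -1.35 without the first vec array and 0.70 without the second. The other 3 probes of SLC26A1 differed by 0.85, 0.69 and 0.59.

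CHST10 shares a sulfotransferase family with CHST8 to CHST14, which sulfate other sugars. Of the 6 other genes 5 were well above background on all 4 arrays, with a median log2 difference of -0.03 and a range from -0.23 to 0.30. CHST8 had the highest value, with levels of -4.34 and -3.98 in vec, compared with -4.09 and -3.62 in shpkp3-2 (adjusted p = 0.638, limma), so that the clones overlapped. CHST11, a chondroitin sulfotransferase, differed by 0.19 (adjusted p = 0.697, limma) and CHST13, of the same kind, by -0.23 (adjusted p = 0.701, limma). With each array left out, CHST8 ranged from 0.07 to 0.54, CHST11 from 0.10 to 0.28 and CHST13 from -0.46 to 0.01, turning direction without the second vec array. CHST9, like CHST10, was well above background on no array.

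The genes of proteins known to carry HNK-1 were in part not well above background. By the brightest probe of each gene, 8 of the 14 of the carrier list had that call on no array. The share over all probes, 33.4%, counts every probe and not the brightest of each gene, so the shares are unlike. Among the 8 were the adhesion molecules NCAM1, NRCAM, CHL1 and CNTN1, the matrix protein TNC, PTPRZ1 and GRIA2. NCAM1, TNC and PTPRZ1 passed the weaker call on all 4 arrays. Another 4 were tested, and ACAN, well above background on 2 arrays, was not. TNR, an extracellular matrix glycoprotein, had levels of -3.48 and -3.19 in vec, against -2.91 and -2.79 in shpkp3-2, a difference of 0.49 (adjusted p = 0.395, limma), or 0.28 with normexp correction. MAG, a glycoprotein of myelin, differed by -0.35 (adjusted p = 0.595, limma) and CNTN2, an adhesion molecule, by 0.10 (adjusted p = 0.906, limma), while DAG1, dystroglycan, was detected on all 4 arrays and differed by -0.03 (adjusted p = 0.966, limma). Every other probe of MAG and of CNTN2 was well above background on no array. The MAG value was -0.06 without the first vec array and turned to 0.04 with normexp correction. CNTN2 ranged from -0.24 to 0.44 with each array left out, and was negative without the first vec or the first shpkp3-2 array.

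L1CAM, an adhesion molecule of the same list, had 2 probes with different patterns. The probe that is brighter on average was well above background on 1 array, the first vec array, and was not tested. Its levels were -4.71 and -5.76 in vec, compared with -6.68 and -5.56 in shpkp3-2, with the clones overlapping. The other probe is named because its values, once seen, showed the detection pattern of B3GAT1, and it passed the filter on detection only through vec, so they are a description and no test is given. It was well above background on both vec arrays and neither shpkp3-2 array, with levels of -5.27 and -4.35 in vec, against -7.35 and -7.40 in shpkp3-2. By the same approximate bound it was 1.48-fold higher in vec. The measured difference was -2.57, and it was -0.10 with normexp correction.

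The genes beside B3GAT1 on its chromosome were compared to show whether the difference extended along it. In the gene table, B3GAT1 is followed by no further protein coding gene, so only the 5 before it were taken. Of these 4 were tested, and limma called 0 of them, with 0 at an unadjusted p under 0.05. VPS26B differed by -0.02, THYN1 by 0.23, ACAD8 by -0.27 and GLB1L2 by -0.18, with adjusted p from 0.623 to 0.969 in limma. With each array left out, the value of GLB1L2 turned to 0.13 without the first vec array and that of VPS26B ranged from -0.11 to 0.06. That of ACAD8 ranged from -0.44 to -0.09 and that of THYN1 from 0.13 to 0.32. GLB1L3 was well above background on no array. B3GAT1-DT, a non-coding gene that starts beside B3GAT1 and was chosen after the gene table was seen, had levels of -3.14 and -2.69 in vec, compared with -2.75 and -2.60 in shpkp3-2. Its difference was 0.24 (adjusted p = 0.682, limma), or 0.02 without the first vec array and 0.46 without the second, and its clones overlapped.

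The genes nearest over the 4 arrays to the values of B3GAT1 as written, surrogates included, were found among 15058 genes by the root mean square difference of log2 levels, each centred on its own mean. They were DNAH2 at 0.0525, CD33 at 0.173 and TM9SF3 at 0.209. All 3 were well above background on all 4 arrays, so that their low levels in shpkp3-2 were measured, unlike that of B3GAT1. DNAH2, an axonemal dynein heavy chain, had levels of 0.47 and 0.62 in vec, against -3.01 and -3.05 in shpkp3-2. Its second probe was well above background on 1 array and differed by 0.80 in the other direction. CD33, a sialic acid binding receptor of myeloid cells, had levels of 1.99 and 2.01 in vec, compared with -1.25 and -1.26 in shpkp3-2, and TM9SF3, a membrane protein of the secretory pathway, had 1.26 and 1.17 in vec, against -1.82 and -2.15 in shpkp3-2. The second probes of CD33 and TM9SF3 differed by -3.26 and -2.84. Since both shpkp3-2 values of B3GAT1 are surrogates and its fall has only a bound, the nearness and its order rest on values that were not measured above background.

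Markers of the epithelial cells of the label and of other cell types, among them those known to carry HNK-1, were set beside these values. All 6 epithelial markers were well above background on all 4 arrays, with summed normalized intensities of 1104 and 1254 in vec, compared with 1408 and 1436 in shpkp3-2, in units of the 75th percentile. Of 6 lymphoid markers, CD3E and PRF1 were well above background on all 4 arrays, NKG7 on 1 vec array, and PTPRC, KLRD1 and GNLY on none. The lymphoid sums were 0.446 and 0.511 in vec, against 0.371 and 0.421 in shpkp3-2. Of 6 neural markers, MAP2, GFAP and MBP had that call on all 4 arrays, while SOX10, SYP and RBFOX3 had it on none, with sums of 2.74 and 2.65 in vec, compared with 3.06 and 3.04 in shpkp3-2. Of 5 fibroblast markers, COL1A1 was detected on all 4 arrays and the other 4 on none, with sums from 0.298 to 0.395. limma called 0 of these markers, and 1, the epithelial CLDN4, had an unadjusted p under 0.05. With the RNA collection as a block it called 1, GFAP, with levels of -3.23 and -1.25 in vec, against -0.76 and -1.04 in shpkp3-2. The GFAP difference was 1.34 (adjusted p = 0.450, and 0.0219 with the block, limma), with a vec SD of 1.41 (n = 2). Over the tested probes, deviations of arrays of the same collection had a correlation of -0.199, so the block is an alternative only. The part of GFAP in the results above was not tested. The brightest lymphoid marker was PRF1, with levels of -1.49 and -1.35 in vec, against -1.89 and -1.58 in shpkp3-2, while the clones overlapped in CD3E. The lymphoid sums, to which PRF1 gave the largest part on every array, were higher in both vec arrays, as was B3GAT1. Their part in the B3GAT1 difference was not tested.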

How the data were processed

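Cy3 labeled RNA of 4 HCT116 samples was hybridized to single color Agilent arrays. The authors ran the Agilent Feature Extraction software (version 9.1 per the labels, 10.7.3.1 per the file headers) and deposited its intensity tables, in which the processed intensity is background subtracted and detrended and not scaled between arrays. The deposited tables also give the mean intensity of a spot, its local background, the pixel count behind it, and flags that rest on the software's p-value of a spot against background.

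Here the log2 of the processed intensity minus the array's 75th percentile was used. Spots flagged as uneven (26 to 39 per array) were left out and spots of a probe averaged. Of 50238 probes, 50117 had a value on all arrays and 30512 were tested, those called well above background on each array of 1 clone or more. B3GAT1 and B3GAT3 were among these. The test between clones was limma (version 3.58.1, R 4.3.3), fitted without covariates, at a Benjamini-Hochberg adjusted p of 0.05. The 2-fold rule asked for a log2 difference of at least 1 from the vec mean on each shpkp3-2 array. The smallest two-sided exact permutation p of 2 arrays against 2 is 0.333. The bound on a fold set the dim arrays to the lowest normalized log2 value called well above background there, or to the spot's own if higher. A probe without the call can lie above that value, so the bound is approximate. Probes were named through the NCBI RefSeq gene table of GRCh38.p14, by accession (28595), symbol (2998) or older symbol (2045), and 16600 kept the name in the files. The array was designed on an older build, so no coordinates are given.

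The members and the lists were chosen with earlier results of these data known. Genes of a list were named if called, and otherwise the 3 with the largest difference among those detected on all arrays, or where well above background on no array. B4GALT6, ST3GAL4, ST8SIA2, UGDH, DAG1, ACAN, the L1CAM probes and B3GAT1-DT fall outside this rule and were chosen after their values or annotation were seen. The values of 1 listed gene are not reported here. The design text states that same-numbered arrays share an RNA collection. Their deviations from the clone means had a correlation of -0.199 over the tested probes. The fit with the collection as a block is an alternative. The other alternatives were normexp correction (offset 50), quantile normalization, median centring, other detection filters, a floor of 5 on the scaled intensity, a trended and robust prior, the mean of all tested probes of a gene, each array left out in turn and, added after the data were seen, a crossed pairing. The fits were tested on simulated data.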

Additional observations from a re-analysis of the deposited data

How the results depend on the processing

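Signal over background limits these values: B3GAT1 was well above background in 1 clone only, and B3GAT2 and CHST10 in neither. With the weaker background call, B3GAT2 was above background on 3 arrays and CHST10 on 4, against 0 with the stronger call. The B3GAT1 log2 difference of -3.57 was -0.48 with normexp correction, -2.23 with a floor of 5, -3.69 with quantile normalization and from -3.67 to -3.47 with each array left out. Its bound of 2.38-fold was 1.20-fold with normexp and 2.23 to 2.55 with each array left out. B3GAT1 stayed lower in shpkp3-2 and B3GAT3 higher under every alternative in which they could be fitted. Filters that ask for all 4 arrays leave no value for B3GAT1. The call of PKP3 was lost with no filter on detection and with the weaker background call, both at -2.54, and with each array left out the difference was from -2.80 to -2.28. The pathway lists and the neighbours of B3GAT1 had 0 calls under all 14 alternatives by the brightest probe of a gene. The second L1CAM probe, named for its pattern and given with no test, is outside these counts.

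The counts over all probes also moved. Probes higher in shpkp3-2 numbered 75, and 42 with quantile normalization, 10 with no filter, 25 with all 4 arrays required, 1 with the weaker call, 114 with a trended and robust prior and 108 to 243 with each array left out. Probes lower numbered 44, and 8, 21 and 1 under these 3 filters and 55 to 154 with each array left out. Without the first vec array there were 171 higher and 142 lower, without the second 154 lower, without the first shpkp3-2 array 243 higher, and without the second 223 higher and 80 lower. With an array left out, the lone array of a clone is assumed to vary like the other clone. The 2-fold rule took 531 probes, 159 with normexp, 322 with all 4 arrays required, 1115 with the weaker call and 775 to 1499 with each array left out. With the RNA collection as a replicate block there were 503 probes higher and 338 lower, and GFAP gained a call. Among the other named genes that were given a test, none gained or lost its call with the block. A crossed pairing, added after seeing the data, gave 64 higher and 40 lower. The causes were not tested.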
